A study of Rattus norvegicus with 20 samples.

Results

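Adolescent social isolation (SI) was compared with group housing (GH) in female rats by the miRNAs of the adBNST, the anterodorsal part of the bed nucleus of the stria terminalis, in 10 of the 20 small RNA libraries of the series. The members were the 5 SI and the 5 GH libraries whose sample title ends in F, which marks the females. All were Sprague-Dawley rats, taken from their dams on postnatal day 21, and lived for 6 weeks either alone (SI) or in groups of 3 with littermates of their sex (GH). Each rat was killed at 9 weeks of age, within hours of a test in the elevated plus maze, which reads avoidance of open arms, and the adBNST was punched from both sides of the frozen brain. The dams had been shipped while pregnant, and this holds for both groups. The sequenced females were chosen by the study for the highest RNA integrity and a spread of estradiol levels. Each library came from 1 rat, 215 ng of total RNA and 22 cycles of PCR. The labels do not say which rats came from 1 litter or cage. For the SI rats numbered 17 the labels and the names of the deposited files give opposite sexes, and here the labels decide. The other 10 libraries are males of both housings and entered the fits only to share the estimate of spread and to test housing by sex.

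The adBNST belongs to the extended amygdala and takes part in anxiety and stress responses. miRNAs are short RNAs cut from hairpin precursors, each of which can give a 5p and a 3p strand, and they lower the output of mRNAs that pair with the seed, bases 2 to 8 of the miRNA. miRNAs with 1 seed form a family with shared targets. The ends of a miRNA vary by trimming and by added bases, and each variant is an isomiR.

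The 2 miRNAs that changed, miR-22-3p and miR-153-3p, are shown with their seeds in capitals, together with the other miRNAs whose groups did not overlap and that are in the table of mature sequences (RefSeq, GRCr8).
miR-22-3p: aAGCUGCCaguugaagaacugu
miR-153-3p: uUGCAUAGucacaaaagugauc
miR-153-5p: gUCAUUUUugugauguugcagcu
miR-138-5p: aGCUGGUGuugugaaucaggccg
miR-138-2-3p: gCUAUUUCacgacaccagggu
miR-132-5p: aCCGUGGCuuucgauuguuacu
miR-24-2-5p: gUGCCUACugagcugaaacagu
miR-140-5p: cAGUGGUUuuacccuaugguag
miR-7b: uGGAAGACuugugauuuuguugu
On GRCr8, miR-22-3p lies at chr10:60805387-60805408 (+ strand). miR-153-3p lies at chr6:144306646-144306667 (+ strand) and miR-153-5p at chr6:144306607-144306629 (+ strand), both arms of 1 hairpin within the span of Ptprn2, a gene of secretory vesicles. miR-140-5p, at chr19:52375314-52375335 (+ strand), lies within the span of Wwp2. miR-132-5p is at chr10:60522055-60522076 (+ strand) and miR-24-2-5p at chr19:40859517-40859538 (- strand). miR-138-2-3p, at chr19:10680139-10680159 (- strand), lies within the span of Slc12a3, and miR-138-5p can come from that hairpin or from a second one on chromosome 8.

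The female libraries held 3602338 to 8205770 miRNA reads in GH and 6255123 to 7805174 in SI rats, a difference within the spread of the groups (p = 0.135 by a two-sided exact permutation test). They differed in composition. SI libraries held 11399 to 16310 distinct sequences and GH libraries 17315 to 20913, with no overlap (exact permutation p = 0.00794, the smallest that 5 against 5 allow). With each library thinned to 3428930 reads the SI mean was still lower, 11596 ± 1643 (SD) against 16011 ± 2075 in GH rats (exact permutation p = 0.0159), but the groups overlapped. The 10 most counted miRNAs took 48.2 to 59.4% of reads in SI and 44.7 to 51.6% in GH rats (exact permutation p = 0.0635). SI rat 16 stood apart, with the fewest distinct sequences, the fewest miRNAs of at least 10 counts (365, against 415 to 461 in the other SI rats) and the highest share of the 10 most counted. The fold changes also moved with base composition. In 4 classes of about equal size, from the lowest to the highest GC content, the median log2 fold change was -0.54, -0.28, 0.02 and 0.29. The correlation of a miRNA's deviation from its mean with its GC content ran from -0.53 to 0.17 in the GH and from -0.35 to 0.45 in the SI libraries. Values with a GC correction, without SI rat 16 or without SI rat 10 are given beside some of the lists whose median or calls they moved.

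Of 617 miRNAs with reads, 500 were tested, those with 10 counts or more in 5 or more of the 20 libraries. In SI compared to GH females 2 of them changed and both fell, which is 0.4% of those tested (edgeR quasi-likelihood test, adjusted p under 0.05). The count depended on the tool and on single rats. DESeq2, the study's tool, called 67 (32 higher and 35 lower), a filter of at least 10 counts in every library gave 40 (17 higher and 23 lower), and without SI rat 10 there were 63 (31 higher and 32 lower), each time with the 2 among them. Of the SI females, SI rat 10 had the levels of these 2 nearest to the GH females. Leaving it out widened the difference in both, and calls gained without it are not separate support. A further reading of the table is by the unadjusted p under 0.05, which 49 miRNAs (9.8%) reached in the higher and 55 (11%) in the lower direction. The 5 SI and 5 GH females did not overlap for 2 miRNAs (0.4%) that were higher and 8 (1.6%) that were lower in SI. The median log2 fold change of all 500 was -0.13. Levels below are log2 normalised counts, the log2 of the count plus 1 after scaling to a common library size, and are given in the order GH rats 12, 13, 15, 16 and 17 and SI rats 10, 12, 14, 16 and 17. No source used here says that a number shared by rats of both groups marks a pair, and such rats were not treated as pairs.

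**Figure D1:**
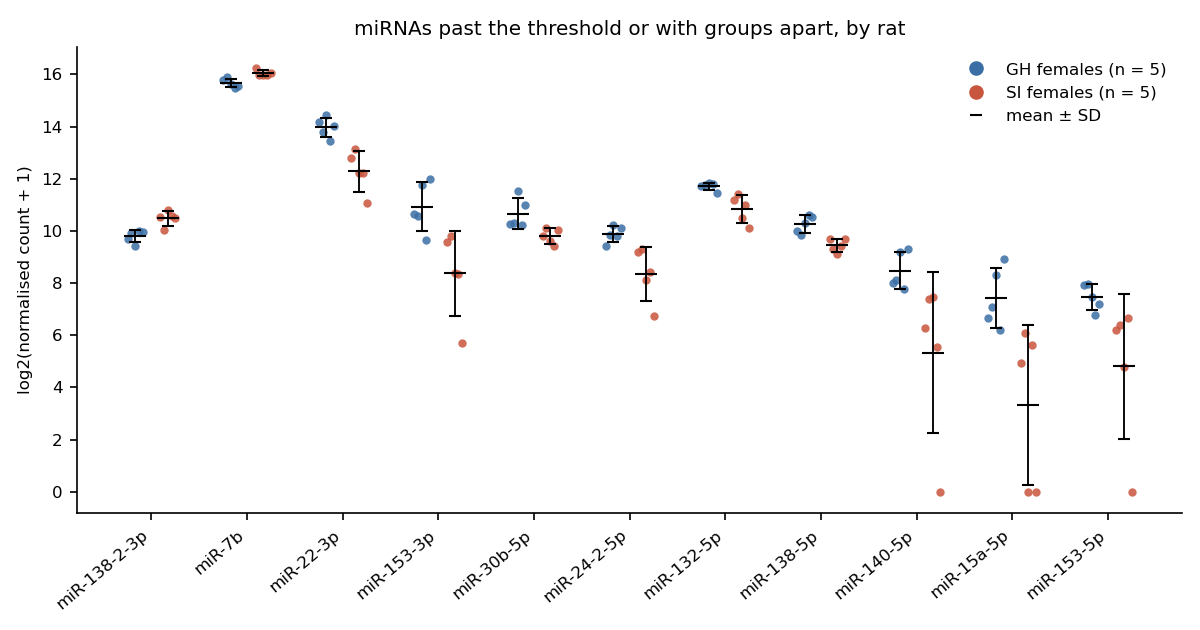
Level of each miRNA that changed or whose groups did not overlap, as log2(normalised count + 1) on the y axis, with 1 point per female and the mean ± SD of 5 rats per group. The SI points of miR-22-3p, between 11.07 and 13.14, lie below every GH point, and the wide SI bars of miR-140-5p, miR-15a-5p and miR-153-5p come with rats in which they were listed at 0.

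miR-22-3p, a conserved miRNA known from heart and brain, fell most clearly. Its levels were 13.79, 13.44, 14.17, 14.43 and 14.01 in GH females and 13.14, 12.23, 12.79, 11.07 and 12.21 in SI females. Every SI female lay below every GH female, and SI rat 16 was the lowest. The log2 fold change was -1.56 ± 0.28 (SE; adjusted p = 0.00516), 2.95-fold lower, and it kept its call whichever female was left out (adjusted p from 0.00152 to 0.0442). With the 10 females fitted alone, without the males' share in the estimate of spread, the fold change was -1.58 and the adjusted p 0.198. The SD of its level was 0.37 in GH and 0.79 in SI females, and 0.28 in GH and 0.24 in SI males. In bulk tissue, fewer cells of a type and less RNA per cell cannot be told apart. The other strand of the hairpin, miR-22-5p, had 6.57 to 8.61 in GH and 5.93 to 7.62 in SI females, which overlap, and its log2 fold change was -0.90 ± 0.72 (SE; unadjusted p = 0.228, adjusted p = 0.539).

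miR-153-3p, a brain-enriched miRNA whose known targets include the mRNA of alpha-synuclein, fell further but with more spread. Its levels were 10.58, 9.66, 10.66, 11.78 and 11.99 in GH females and 9.82, 8.34, 9.57, 5.72 and 8.40 in SI females. In 4 of 5 SI females it lay below every GH female, the exception being SI rat 10, which was above GH rat 13. The log2 fold change was -2.28 ± 0.51 (SE; adjusted p = 0.0391), 4.85-fold lower. The call was lost without GH rat 16 (adjusted p = 0.152), GH rat 17 (0.0708), SI rat 17 (0.144) or SI rat 12 (0.127), and with the females fitted alone (0.299). Its SD was 0.95 in GH and 1.63 in SI females, and 0.28 in GH and 0.44 in SI males, which share the estimate of spread. After the GC correction the log2 fold change was -2.0 (adjusted p = 0.0226).

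The opposite strand, miR-153-5p, has a different seed and few reads. Its levels were 7.97, 6.79, 7.92, 7.48 and 7.19 in GH females and 6.37, 6.68, 6.19, 0 and 4.78 in SI females. All SI females lay below all GH females, SI rat 16 being listed at 0, and the log2 fold change of -1.71 ± 0.80 (SE; unadjusted p = 0.0442, adjusted p = 0.221) did not pass the threshold. The log2 ratio of the 5p to the 3p strand was -0.25 ± 0.81 (SE; adjusted p = 0.846).

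None of the other miRNAs whose groups did not overlap passed the threshold in the main edgeR fit. Without SI rat 10, miR-132-5p, miR-138-2-3p, miR-30b-5p and miR-24-2-5p did. Each of these 4 passed in 3 of 22 alternatives, 1 of them the fit without SI rat 10. miR-138-5p passed in 2 alternatives and miR-140-5p, miR-15a-5p and miR-7b in 1 each, none with a single female left out. Among those related to neuronal activity and synapses, miR-132-5p, from a hairpin whose 3p strand is induced by the activity-dependent factor CREB, had 11.76, 11.80, 11.71, 11.82 and 11.47 in GH females and 11.40, 10.98, 11.20, 10.10 and 10.49 in SI females. The groups were close at their edges, GH rat 17 lying just above SI rat 10, and the log2 fold change was -0.81 ± 0.25 (SE; unadjusted p = 0.00385, adjusted p = 0.0838). miR-138-5p, a regulator of dendritic spines, had 9.85, 10.62, 10.01, 10.31 and 10.54 in GH females and 9.32, 9.41, 9.69, 9.68 and 9.13 in SI females. Its log2 fold change was -0.83 ± 0.28 (SE; unadjusted p = 0.00614, adjusted p = 0.101). The 3p strand of one of its hairpins, miR-138-2-3p, had the opposite sign, with 9.91, 9.99, 9.67, 9.43 and 9.97 in GH females and 10.02, 10.59, 10.54, 10.50 and 10.81 in SI females. It was higher in every SI than in every GH female, with a log2 fold change of 0.70 ± 0.22 (SE; unadjusted p = 0.00374, adjusted p = 0.0838).

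miR-7b, of the miR-7 family that the circular RNA Cdr1as binds, was the second miRNA with all SI above all GH females. Its levels were 15.89, 15.49, 15.77, 15.63 and 15.58 in GH females and 15.97, 15.99, 16.24, 16.04 and 15.97 in SI females, and the log2 fold change was 0.37 ± 0.16 (SE; unadjusted p = 0.0321, adjusted p = 0.187). miR-7a-5p carries the same seed and most of its reads, 82.9%, and for the seed as a whole the log2 fold change was 0.08 ± 0.17 (SE; adjusted p = 0.801).

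The remaining miRNAs of this kind were lower in SI. miR-30b-5p, of the miR-30 family, had 10.30, 10.22, 10.26, 11.54 and 11.01 in GH females and 10.12, 9.40, 9.79, 10.05 and 9.63 in SI females, with a log2 fold change of -0.95 ± 0.27 (SE; unadjusted p = 0.00172, adjusted p = 0.0838). miR-24-2-5p, the passenger strand of one of the hairpins that give miR-24-3p, had 9.84, 9.82, 9.41, 10.23 and 10.12 in GH females and 9.31, 8.41, 9.19, 6.74 and 8.10 in SI females, with a log2 fold change of -1.31 ± 0.39 (SE; unadjusted p = 0.00242, adjusted p = 0.0838). Both were lower in every SI than in every GH female. The last 2 had few reads. miR-140-5p, known from cartilage, had 8.11, 7.76, 8, 9.18 and 9.30 in GH females and 7.38, 5.53, 6.28, 0 and 7.46 in SI females, where SI rat 16 was listed at 0, and its log2 fold change was -2.08 ± 0.77 (SE; unadjusted p = 0.0124, adjusted p = 0.112). miR-15a-5p, of the miR-15/16 family that targets cell cycle mRNAs, had 7.07, 6.21, 6.66, 8.32 and 8.91 in GH females and 6.10, 5.62, 4.93, 0 and 0 in SI females, where SI rats 16 and 17 were listed at 0. Its log2 fold change was -2.92 ± 1.08 (SE; unadjusted p = 0.0129, adjusted p = 0.112). The deposited tables list only sequences read at least 2 times, so a 0 can hide single reads.

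Families and clusters were described by list, each beside the 500 miRNAs as a whole, of which 282 had fold changes below 0. The 9 let-7 and miR-98 guide strands, which promote differentiation and are among the most abundant miRNAs of the brain, share the seed GAGGUAG and differ in a few bases outside it, as RefSeq gives them on GRCr8.
let-7a-5p: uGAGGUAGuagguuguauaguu
let-7b-5p: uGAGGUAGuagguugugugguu
let-7c-5p: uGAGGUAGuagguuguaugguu
let-7d-5p: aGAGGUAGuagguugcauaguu
let-7e-5p: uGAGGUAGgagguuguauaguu
let-7f-5p: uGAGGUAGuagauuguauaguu
let-7g-5p: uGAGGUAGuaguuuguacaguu
let-7i-5p: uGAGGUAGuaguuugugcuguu
miR-98-5p: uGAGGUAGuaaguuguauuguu
All 9 had fold changes above 0, with a median of 0.65 on the log2 scale, and 7 of 9 had an unadjusted p under 0.05, against 9.8% of all miRNAs in that direction. None passed the threshold. The lowest unadjusted p was that of let-7d-5p, with 16.08 to 16.89 in GH and 16.45 to 17.83 in SI females and a log2 fold change of 0.70 ± 0.22 (SE; unadjusted p = 0.00442, adjusted p = 0.0876). let-7a-5p had 18.03, 18.63, 18.68, 17.44 and 17.56 in GH females and 17.83, 18.57, 18.38, 19.64 and 19 in SI females. SI rats 16 and 17 lay above every GH female, and the other 3 lay among them. Its log2 fold change was 0.66 ± 0.27 (SE; unadjusted p = 0.0251, adjusted p = 0.161). The smallest differences were those of let-7i-5p, 0.17 ± 0.16, and let-7g-5p, 0.37 ± 0.17. Reads that match several miRNAs were counted for each, and they made up 0.164 to 0.267% of the miRNA reads in the females.

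Counted together, the reads with the let-7 seed gave levels of 20.48, 20.87, 20.97, 20.12 and 20.17 in GH females and 20.36, 20.96, 20.79, 21.84 and 21.29 in SI females. SI rat 16 was the highest and GH rat 16 the lowest of the 10. The log2 fold change of the seed was 0.57 ± 0.22 (SE; unadjusted p = 0.0151, adjusted p = 0.12). Without SI rat 16 the median over the 9 members was 0.39, with 4 at an unadjusted p under 0.05, and with the GC correction it was 0.98. Without SI rat 10 the median was 0.82 and let-7a-5p, let-7d-5p, let-7f-5p and miR-98-5p passed the threshold (adjusted p from 0.0213 to 0.0393), beside 63 of all 500 miRNAs. let-7d-5p and miR-98-5p also passed in alternatives that left no single female out.

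The miR-29 family, known to lower collagens and other extracellular matrix proteins, had fold changes of the opposite sign. Its 3 members share the seed AGCACCA.
miR-29a-3p: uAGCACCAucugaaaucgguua
miR-29b-3p: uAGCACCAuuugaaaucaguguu
miR-29c-3p: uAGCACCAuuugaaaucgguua
All 3 had fold changes below 0 (median -1.28), 2 with an unadjusted p under 0.05, where 11% of all miRNAs stood. miR-29a-3p had 15.63, 15.46, 15.28, 16.36 and 16.33 in GH females and 15.59, 14.76, 15.20, 12.59 and 14.24 in SI females. In 4 of 5 SI females it was below every GH female, with a log2 fold change of -1.11 ± 0.34 (SE; unadjusted p = 0.00359, adjusted p = 0.0838). miR-29b-3p had 10.37 to 12.43 in GH and 4.74 to 11.32 in SI females, the lowest value being that of SI rat 16, and a log2 fold change of -1.36 ± 0.57 (SE; unadjusted p = 0.0267, adjusted p = 0.165). Without SI rat 16 the median of the 3 was -0.94 and without SI rat 10 it was -1.68, each time with all 3 at an unadjusted p under 0.05.

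The guide strands of the miR-23, miR-24 and miR-27 clusters, which are co-transcribed and known from blood vessels, were all 5 below 0 (median -0.57), 4 of them with an unadjusted p under 0.05, against 11% of all miRNAs in that direction. miR-24-3p had the lowest p in the table after the 2 called miRNAs. Its levels were 14.17, 13.67, 14.27, 15.17 and 14.52 in GH females and 13.72, 12.52, 13.69, 11.35 and 13.05 in SI females, and its log2 fold change was -1.35 ± 0.33 (SE; unadjusted p = 0.000484, adjusted p = 0.0807). Of the 5 SI rats, 3 lay below every GH rat. The fold changes of the others were -0.84 ± 0.26 (SE) for miR-27a-3p, -0.57 ± 0.23 for miR-27b-3p, -0.47 ± 0.17 for miR-23a-3p and -0.29 ± 0.15 for miR-23b-3p.

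The 6 members of the miR-15/16 family, which restrain the cell cycle, were all below 0 (median -0.95), 2 with an unadjusted p under 0.05, miR-15a-5p and miR-16-5p, where 11% of all miRNAs stood in that direction, as for the lists that follow. miR-16-5p had 11.91 to 13.39 in GH and 9.71 to 12.49 in SI females and a log2 fold change of -1.02 ± 0.38 (SE; unadjusted p = 0.0124, adjusted p = 0.112). The 5 miR-30 guide strands were below 0 (median -0.46), 2 with an unadjusted p under 0.05, miR-30b-5p and miR-30e-5p. The fold changes ran from -1.18 ± 0.35 (SE) for miR-30e-5p to -0.20 ± 0.15 for miR-30c-5p, and without SI rat 16 the median was -0.19, with 2 still at that p. The 4 miR-181 guide strands had a median of -0.35, with miR-181a-5p at -0.55 ± 0.19 and the less counted miR-181c-5p at -1.41 ± 0.45 having an unadjusted p under 0.05. Among the 4 tested members of miR-34 and miR-449, which p53 and ciliated cells are known to raise, miR-34c-5p had -1.31 ± 0.46 (SE; unadjusted p = 0.00906, adjusted p = 0.112). The median of the 4 was -0.89, with 3 below 0 and miR-449a-5p above it at 1.61. Lists without a member at that p were the miR-17 seed family (5 tested, median -0.14), miR-221 and miR-222 (4, median -0.05) and the miR-344 family (6, median -0.33). In miR-99, miR-100 and miR-125 (5, median 0.04) miR-99a-5p reached it with -0.67 ± 0.28, and in miR-132 and miR-212 (4, median -0.33) miR-212-3p with -0.57 ± 0.21, beside miR-132-5p above. Without SI rat 16 the medians of these 2 lists were 0.23 and -0.20, and that of the miR-15/16 family was -0.64. No member of these lists passed the threshold in the main edgeR fit. Without SI rat 10, miR-24-3p, miR-27a-3p, miR-29a-3p, miR-30b-5p, miR-30e-5p, miR-16-5p, miR-181c-5p, miR-34c-5p, miR-99a-5p and miR-132-5p passed, with adjusted p from 0.0192 to 0.0450. In that fit 63 of all 500 miRNAs passed. Other alternatives called some members as well. Of 22 alternatives, 6 called miR-24-3p, 3 of them with 1 female left out. miR-30e-5p passed in 4, and miR-29a-3p, miR-27a-3p and miR-181c-5p in 3 each, in each case 1 of them with a female left out. miR-212-3p and miR-181a-5p passed in 2 each and miR-23a-3p in 1, none with a single female left out.

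**Figure D2:**
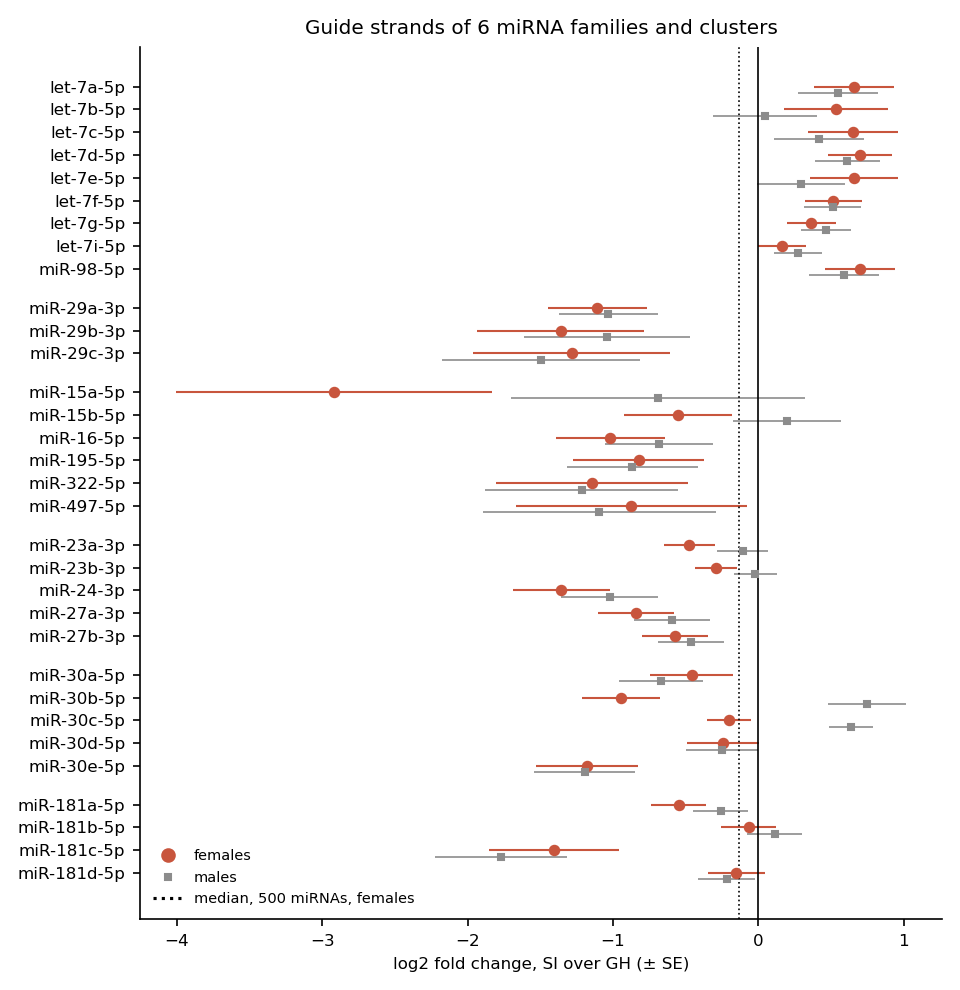
Log2 fold change in SI compared to GH rats (x axis, ± SE) of each guide strand in 6 families or clusters, in females (circles) and males (squares), with a dotted line at the females' median over 500 miRNAs, -0.13. The let-7 members sit to the right of 0 in both sexes and the miR-29 members to the left, and miR-30b-5p is at -0.95 in females and 0.75 in males.

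On chromosome 6, rats carry 2 imprinted miRNA clusters that are expressed from the maternal allele and are rich in the brain. Of the miR-379/410 cluster 57 miRNAs were tested, 6 with an unadjusted p under 0.05 in the higher and 7 in the lower direction, shares near the 9.8 and 11% of all miRNAs, and the median was -0.18, close to that of all miRNAs. Without SI rat 16 the counts were 4 and 3 and the median was 0.012. Without SI rat 10 they were 8 and 13 with a median of -0.32, and 9 members passed the threshold, beside 63 of all 500 miRNAs. The higher ones included both strands of miR-485, at 0.93 ± 0.34 (SE) for the 3p and 0.69 ± 0.25 for the 5p strand, and miR-134-5p, a regulator of dendritic spine size, at 0.51 ± 0.22, miR-323-5p at 0.69 ± 0.31 and miR-668 at 0.47 ± 0.22. miR-382-5p had the lowest p of the 6, with 14.12 to 14.81 in GH and 14.71 to 15.70 in SI females and a log2 fold change of 0.62 ± 0.18 (SE; unadjusted p = 0.00265, adjusted p = 0.0838). The lower ones were miR-376b-5p at -1.43 ± 0.44, miR-369-5p at -0.98 ± 0.42, miR-376a-3p at -0.96 ± 0.42, miR-376b-3p at -0.93 ± 0.41, miR-411-5p at -0.85 ± 0.38, miR-380-3p at -0.84 ± 0.32 and miR-496-5p. The last had 0 to 32 reads in GH females and was listed at 0 in every SI female. Only libraries other than those of SI females carried miR-496-5p past the count filter, and no fold or p is given for it. In the cluster of miR-127, miR-433 and miR-770, 20 were tested, 3 with an unadjusted p under 0.05 in the higher and 4 in the lower direction (median -0.08). The median was -0.27 with the GC correction and 0.039 without SI rat 16. Without SI rat 10 it was -0.14, with 5 members past the threshold, beside the same 63 of all 500 miRNAs. miR-770-3p had 11.39 to 12.51 in GH and 12.30 to 13.58 in SI females and a log2 fold change of 0.85 ± 0.24 (SE; unadjusted p = 0.00186, adjusted p = 0.0838). miR-433-3p was at 0.64 ± 0.22 and miR-434-3p at 0.41 ± 0.19, whereas miR-434-5p was at -0.80 ± 0.29, miR-341 was at -0.99 ± 0.32 and both strands of miR-136 were below 0, the 3p at -0.96 ± 0.36 and the 5p at -1.53 ± 0.69. No member of either cluster passed the threshold in the main edgeR fit, and both directions occurred side by side. Alternatives called some of them. miR-382-5p and miR-770-3p, for example, passed in 3 of 22 each, 1 of them with a female left out.

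Of all 500 miRNAs, 282 had fold changes below 0. An unadjusted p under 0.05 was reached by 9.8% in the higher and 11% in the lower direction. miRNAs that mark cell types were read in the same way, beside these shares. Those of neurons, such as miR-124-3p and miR-9a-5p, were abundant in every punch and their summed level was 19.65 to 20.02 in GH and 19.10 to 20.37 in SI females. Of the 7 tested, miR-153-3p fell and miR-138-5p had an unadjusted p under 0.05, and the median was -0.17. It was 0.056 without SI rat 16 and 0.048 with the GC correction. miR-124-3p was at -0.19 ± 0.24 (SE) and miR-9a-5p at 0.14 ± 0.20. Of the 6 vascular markers, 5 had fold changes below 0, the exception being miR-143-5p at 0.52 ± 1.91, with 0 to 61 reads in the females. The 2 strands of miR-126a, from endothelial cells, summed to 12.56 to 13.80 in GH and 9.00 to 12.78 in SI females, the lowest being SI rat 16, and miR-126a-3p had a log2 fold change of -1.25 ± 0.40 (SE; unadjusted p = 0.00455, adjusted p = 0.0876). The 4 miRNAs of vascular mural cells summed to 15.96 to 16.95 in GH and 13.72 to 16.44 in SI females, and miR-143-3p and miR-145-5p had an unadjusted p under 0.05, at -0.83 ± 0.32 and -1.02 ± 0.39. The red blood cell list summed to 12.31 to 13.19 in GH and 13.15 to 14.66 in SI females, nearly all of it miR-486. Its median log2 fold change over 4 miRNAs was 0.23, and -0.55 without SI rat 10. The defining red blood cell miRNA miR-451-5p was low in both groups, 4.31 to 7.25 in GH and 0 to 6.94 in SI females. Oligodendrocyte markers split, with miR-338-5p at 0.70 ± 0.23 and with miR-338-3p at -2.30 ± 0.70 and miR-219a-5p, of few reads, at -2.71 ± 1.22, and a summed level of 14.51 to 15.35 in GH and 14.64 to 15.98 in SI females. miR-338-3p passed the threshold without SI rat 16, where it was at -1.97. Without SI rat 10, miR-338-3p, miR-338-5p, miR-143-3p, miR-126a-3p and miR-486 passed, beside 63 of all 500 miRNAs. Each of them also passed in an alternative that left no single female out. The microglia list (6 tested, none with an unadjusted p under 0.05) summed to 12.08 to 13.07 in GH and 11.75 to 12.73 in SI females. Its median log2 fold change was -1.08, with 5 below 0 and 1 above (range -2.40 to 0.30). With the I17 libraries exchanged, 2 members had an unadjusted p under 0.05 in the lower direction. Of the 7 tested for choroid plexus and ependyma, miR-34c-5p had an unadjusted p under 0.05 in the lower direction. Of the list, 5 were below 0 and 2 above, the highest at 1.99 (median -0.48). The sums were 13.35 to 15.37 in GH and 12.71 to 14.82 in SI females. The part of vessels or blood in the differences above was not tested.

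Summed by seed, 403 families were tested and 2 (0.496%) changed, the same miR-22-3p and miR-153-3p, which are alone in their seeds here. With these 2 among them, 38 (9.43%) in the higher and 40 (9.93%) in the lower direction had an unadjusted p under 0.05. SI and GH females did not overlap for 1 seed (0.248%) in the higher direction, CCUGUAC of miR-486, and for 6 (1.49%) in the lower. The miR-486 seed had 12.81, 12.95, 13.11, 12.39 and 12.60 in GH females and 13.12, 13.25, 13.42, 14.65 and 13.82 in SI females and a log2 fold change of 0.98 ± 0.26 (SE; unadjusted p = 0.00106, adjusted p = 0.0715), and it passed the threshold without SI rat 10. The AUUGCAC seed of miR-92, miR-25, miR-32 and miR-363 was at 0.79 ± 0.26 (SE; adjusted p = 0.0817) and the seed GGCAGUG of miR-34 and miR-449 at -1.20 ± 0.40 (SE; adjusted p = 0.0898).

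The 2 arms of a hairpin come from 1 precursor, so their ratio sets aside how much of the precursor was made. The ratio of 5p to 3p counts was tested for 113 hairpins (limma, log2 of counts plus 0.5), and 4 of them (3.54%) changed, those of miR-30e, miR-411, miR-423 and miR-132. An unadjusted p under 0.05 was reached by 12 (10.6%) in the higher and 19 (16.8%) in the lower direction, and SI and GH females did not overlap for 2 (1.77%) and 4 (3.54%). The precursors are printed with the mature strands that RefSeq places in them in capitals.
Mir30e: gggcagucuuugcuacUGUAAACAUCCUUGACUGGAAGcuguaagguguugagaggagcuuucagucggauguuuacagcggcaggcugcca
Mir411: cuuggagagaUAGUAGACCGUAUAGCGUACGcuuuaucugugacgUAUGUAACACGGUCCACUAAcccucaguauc
Mir423: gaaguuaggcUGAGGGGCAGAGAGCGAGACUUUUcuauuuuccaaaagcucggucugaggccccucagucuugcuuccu
Mir132: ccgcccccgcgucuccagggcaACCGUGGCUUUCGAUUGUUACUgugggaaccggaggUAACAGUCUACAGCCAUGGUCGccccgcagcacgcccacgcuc
On GRCr8 these lie at chr5:139637450-139637541 (- strand), chr6:134544594-134544669 (+ strand), chr10:62412272-62412350 (- strand) and chr10:60522033-60522133 (+ strand), the first within the span of Nfyc and the third within that of Nsrp1.

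The miR-30e ratio fell. Its log2 values were 1.42, 1.58, 1.54, 2.27 and 2.41 in GH females and 1.16, 0.47, 0.74, -1.10 and 0.23 in SI females, every SI female below every GH female, and SI rat 16 alone had more 3p than 5p. The log2 difference was -1.54 ± 0.35 (SE; adjusted p = 0.0386), 2.91-fold lower. miR-30e-5p was at -1.18 ± 0.35 (SE) and miR-30e-3p at 0.05 ± 0.21.

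The miR-411 ratio fell too, with 1.69, 1.20, 2.27, 1.96 and 1.79 in GH females and 1.46, 0.38, 0.96, -0.52 and 0.48 in SI females. The groups overlapped in SI rat 10, which was above GH rat 13. The log2 difference was -1.23 ± 0.31 (SE; adjusted p = 0.0447), 2.35-fold lower, and the log2 fold changes of the strands were, for 5p and 3p, -0.85 ± 0.38 (SE) against 0.14 ± 0.24. The miR-132 ratio, of a hairpin counted mostly as 3p, had -3.43, -3.96, -3.61, -2.95 and -3.53 in GH females and -3.99, -4.40, -4.20, -4.32 and -4.45 in SI females. All SI females lay below all GH females, by a log2 difference of -0.78 ± 0.21 (SE; adjusted p = 0.0453), 1.71-fold lower. miR-132-3p itself was at -0.09 ± 0.22 (SE).

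Of the 4, the miR-423 ratio alone rose. Its values were -0.31, -0.07, -0.17, -0.83 and -0.23 in GH females and 0.07, 0.80, 0.43, 1.0 and 0.47 in SI females, so that the 3p strand led in all GH and the 5p strand in all SI females. The log2 difference was 0.87 ± 0.23 (SE; adjusted p = 0.0447), 1.83-fold higher. Neither strand passed the threshold alone, the 5p being at 0.57 ± 0.26 (SE) and the 3p at -0.27 ± 0.19. These calls depended on single rats, controls included. Without GH rat 15, 16 or 17 or SI rat 12 or 17 none of the 113 ratios passed, and without GH rat 12 or SI rat 14 there were 1 and 2. Without SI rat 10 there were 16 and without GH rat 13 there were 7. Without SI rat 16 there were 4, among them those of miR-30e, miR-411 and miR-132 but not miR-423 (adjusted p = 0.0640). With the 10 females fitted alone none passed (adjusted p = 0.249 for each of these 4).

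The ratios of miR-338, miR-140 and miR-135b separated the groups without passing. The 5p strand of miR-140 and the 3p strand of miR-135b had few reads. For miR-338 the log2 ratio was 3.49, 3.84, 3.86, 2.70 and 2.81 in GH females and 4.36, 6.71, 5.03, 15.06 and 7.33 in SI females, and the highest value is that of SI rat 16, in which miR-338-3p was listed at 0. The log2 difference was 4.36 ± 1.31 (SE; unadjusted p = 0.00389, adjusted p = 0.0617). miR-338-3p had 8.56 to 10.67 in GH and 0 to 8.64 in SI females, with a log2 fold change of -2.30 ± 0.70 (SE; unadjusted p = 0.00309, adjusted p = 0.0838), and miR-338-5p was at 0.70 ± 0.23 (SE; unadjusted p = 0.00618, adjusted p = 0.101). Without SI rat 16 the ratio differed by 2.52 and passed (adjusted p = 0.0110). For miR-140 the log2 difference was -3.34 ± 1.13 (SE; unadjusted p = 0.00849, adjusted p = 0.0959) and for miR-135b -2.67 ± 1.18 (SE; unadjusted p = 0.0358, adjusted p = 0.142), the 3p of the former being at 0.05 ± 0.16 (SE).

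**Figure D3:**
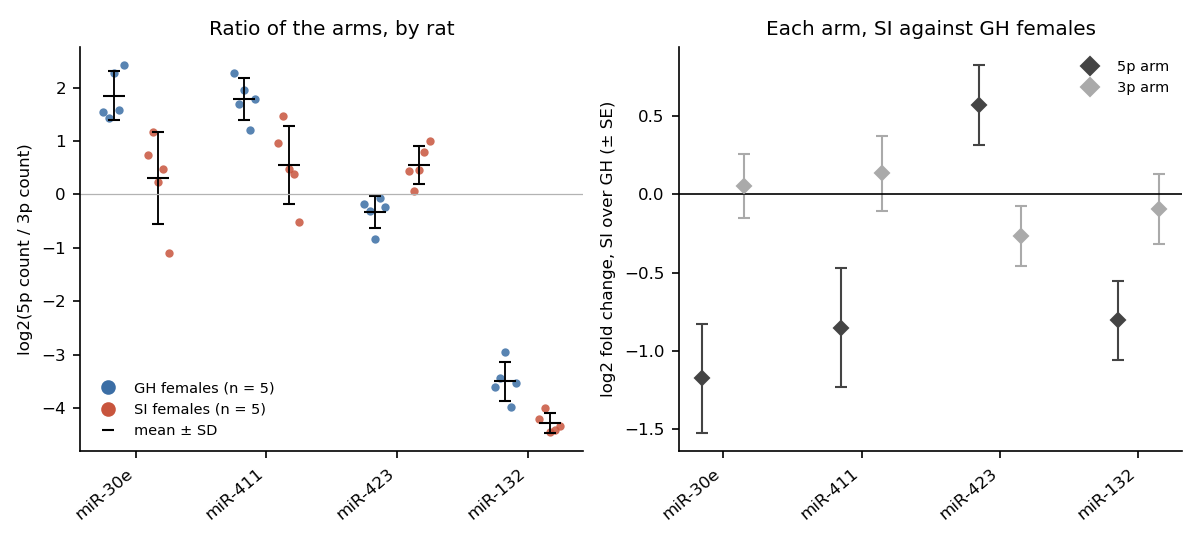
Left, log2 of the 5p over the 3p count (y axis) of the 4 hairpins that changed, with 1 point per female and the mean ± SD of 5 per group. Right, the log2 fold change of each arm in SI compared to GH females (± SE). The miR-423 points lie below 0 in all GH and above 0 in all SI females, and the 3p arms of miR-30e, miR-411 and miR-132 lie within 0.14 of 0.

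The composition of all miRNA reads by isomiR class did not differ past the threshold (13 classes, exact permutation tests, two-sided). Reads equal to the reference form made up 45.2% ± 1.19 (SD) in the 5 GH and 47.0% ± 1.75 in the 5 SI females. Reads with an extended 3′ end made up 14.3% ± 0.637 in GH and 12.8% ± 1.47 in SI females, the class with the lowest p (exact permutation p = 0.0556, adjusted p = 0.390). A shortened 3′ end was found in 29.5% ± 1.35 and 28.8% ± 0.659, an addition at the 3′ end in 15.3% ± 0.981 and 15.7% ± 0.562, and a shifted 5′ end, which moves the seed, in 5.90% ± 0.798 and 5.38% ± 0.953 of GH and SI reads. Added A and added U, the common tails, were 6.88 and 6.04% of GH reads and 7.34 and 5.66% of SI reads.

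Taken 1 by 1, 10290 isomiRs were tested and 0 (0%) passed the edgeR threshold, with 275 (2.67%) in the higher and 674 (6.55%) in the lower direction at an unadjusted p under 0.05, while DESeq2 called 23. SI and GH females did not overlap for 40 (0.389%) in the higher and 175 (1.7%) in the lower direction. Of the isomiRs tested, 375 were listed at 0 in every female of at least 1 group, and these counts do not leave them out. Of the reference forms, 21 (5.51%) had an unadjusted p under 0.05 in the higher and 64 (16.8%) in the lower direction. The isomiRs shown carry the seed of the read in capitals, in DNA letters as the deposited tables give them.
miR-22-3p reference form: aAGCTGCCagttgaagaactgt
miR-22-3p short of GT: aAGCTGCCagttgaagaact
miR-129-5p reference form: cTTTTTGCggtctgggcttgc
miR-129-5p short of C: cTTTTTGCggtctgggcttg
miR-129-5p short of C with a T added: cTTTTTGCggtctgggcttgt
miR-181a-5p reference form: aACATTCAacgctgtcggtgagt

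The lowest p in the higher direction belonged to miR-129-5p, a brain miRNA with an unusually U-rich seed, in the form that lacks the last base and has a T added. It had 1929, 1785, 2159, 1047 and 873 reads in GH females and 2717, 4781, 2974, 3912 and 4166 in SI females. After scaling all SI females lay above all GH females, by a log2 fold change of 0.92 ± 0.18 (SE; unadjusted p = 5.95e-05, adjusted p = 0.306). The form that only lacks the base had 0.98 ± 0.22 (SE; adjusted p = 0.318) and the reference form 0.39 ± 0.18 (SE; adjusted p = 0.498). Summed over its forms, miR-129-5p had 15.21 to 16.31 in GH and 16.25 to 17.07 in SI females and a log2 fold change of 0.69 ± 0.21 (SE; unadjusted p = 0.00338, adjusted p = 0.0838). Others in this direction were the reference form of miR-486, at 0.82 ± 0.22 (SE), miR-770-3p extended by CT, at 1.06 ± 0.24, and miR-6331 short of GC, at 0.81 ± 0.21.

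In the lower direction, the lowest p among forms with reads in both groups was that of the miR-22-3p reference form. It had 9858, 6590, 18058, 17675 and 9722 reads in GH females and 7227, 3245, 5191, 799 and 3603 in SI females, a log2 fold change of -1.96 ± 0.41 (SE; unadjusted p = 0.000116, adjusted p = 0.318), and it passed the threshold without SI rat 10. The form short of GT had 1364, 1099, 2507, 1380 and 702 reads in GH females and 1001, 949, 1171, 573 and 1287 in SI females, a log2 fold change of -0.79 ± 0.23 (SE; unadjusted p = 0.00249, adjusted p = 0.318). The first made up 79.3% of the reads of miR-22-3p in GH and 69.3% in SI females, and the second 9.03 and 17.2%. The 2 leading forms of miR-153-3p, the reference form and that extended by AT, were at -2.44 ± 0.62 (SE) and -2.26 ± 0.74, and kept 47.2 and 13.7% of its reads in GH and 50.7 and 15.3% in SI females. The reference form of miR-181a-5p was at -1.14 ± 0.29 and that of miR-370-3p at -1.12 ± 0.29. Of the lowest p-values, 4 belonged to forms listed at 0 in every SI female, so only other libraries carried them past the count filter. No fold or p is given for them. The first was a miR-490-3p form that begins 1 base earlier, with a C, and lacks the last base, with 9 to 37 reads in GH females. The reference form of miR-338-3p had 9 to 43, a miR-181a-5p form that lacks its last base and has AAA added 13 to 43, and a miR-344b-3p form that lacks its last base and has an A added 5 to 30. A form of miR-24-3p that lacks its last base and has a T added had 96, 8, 72, 90 and 42 reads in GH females and 4, 0, 0, 0 and 0 in SI females, few beside the miRNA as a whole.

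Within a miRNA, the share of each class was tested for 214 miRNAs of at least 200 reads in every library, 856 shares in all, and 0 (0%) passed the threshold (limma, log2 odds). An unadjusted p under 0.05 was reached by 49 shares (5.72%) that were higher and 52 (6.07%) that were lower. Of 214 shares of each class, shortened 3′ ends were counted 21 times higher and 8 times lower at that p, and extended ones 9 times higher and 19 times lower. The median log2 odds difference was -0.0093 for shortened and -0.18 for extended ends, so most shortened shares did not move in 1 direction. Reads of miR-22-3p with a shortened 3′ end were 17.4, 19.6, 17.4, 11.2 and 11.1% in GH females and 18, 29.2, 27, 41 and 27.1% in SI females. SI rat 10 lay among the GH females and the other 4 above them, and the log2 odds differed by 1.13 ± 0.27 (SE; unadjusted p = 0.000473, adjusted p = 0.135). For miR-129-5p the shortened reads were 21.5% ± 0.994 (SD) in the 5 GH females and 28.2% ± 4.2 in the 5 SI females, without overlap, a log2 odds difference of 0.51 ± 0.12 (SE; unadjusted p = 0.000397, adjusted p = 0.135). For miR-124-3p, the leading miRNA of neurons, they were 88.8% ± 2.91 (SD) in the 5 GH females and 93.3% ± 1.35 in the 5 SI females, and for miR-361-5p 19.6% ± 1.42 (SD) in the 5 GH females and 27.8% ± 2.61 in the 5 SI females. Additions to miR-326-3p were 20.7, 27.5, 21.9, 21.2 and 18.1% in GH females and 29, 35, 37.3, 44.1 and 29.7% in SI females, all SI females above all GH females, by 0.94 ± 0.21 (SE; unadjusted p = 0.000247, adjusted p = 0.135) on the log2 odds scale. Extended 3′ ends of miR-129-1-3p were 32.8% ± 8.32 (SD) in the 5 GH females and 16% ± 2.23 in the 5 SI females, with a log2 odds difference of -1.33 ± 0.34 (SE; unadjusted p = 0.000947, adjusted p = 0.135). The 5′ end of miR-124-3p was shifted in 42.3% ± 2.64 (SD) in the 5 GH females and 46.6% ± 0.754 in the 5 SI females.

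**Figure D4:**
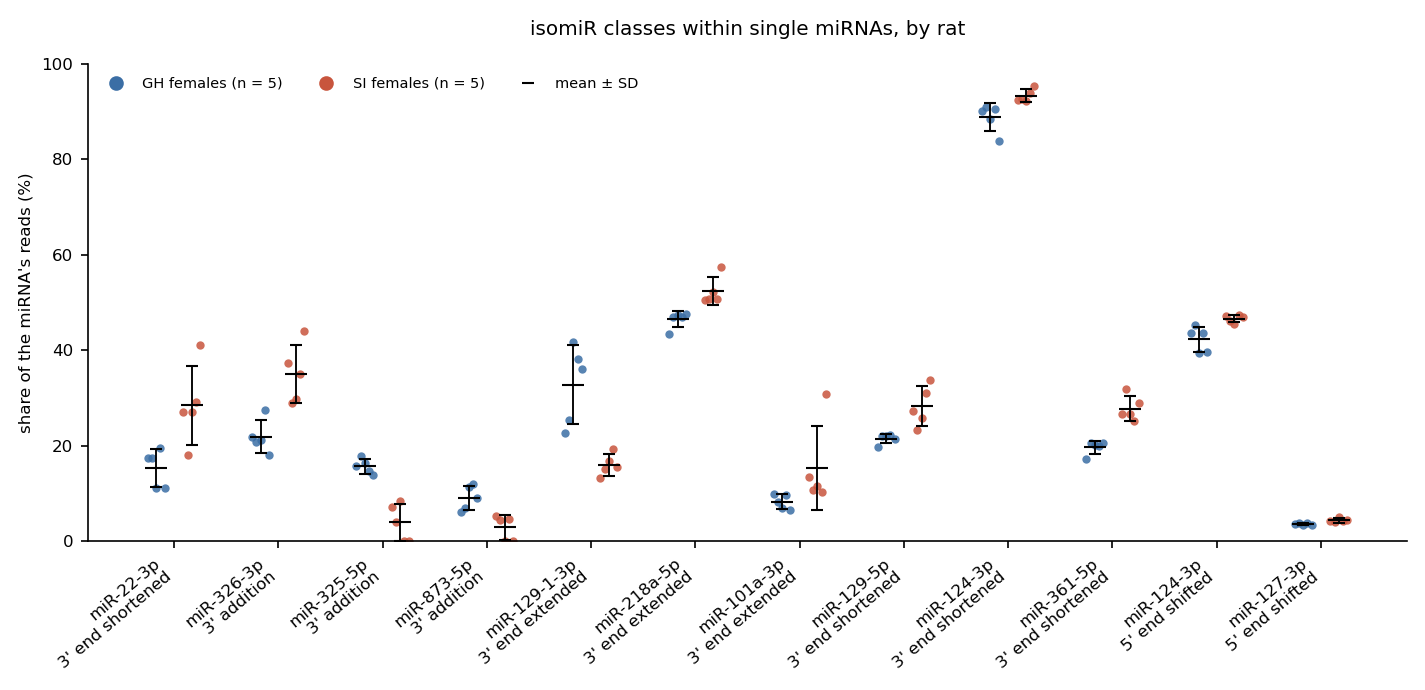
Share of a miRNA's reads in 1 isomiR class (y axis, percent), with 1 point per female and the mean ± SD of 5 per group, for the shares with the lowest unadjusted p among those whose groups did not overlap and for miR-22-3p. None passed the threshold, and the shortened miR-22-3p share reaches 41.0% in an SI female and stays at 19.6% or less in the GH females.

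The males allowed a test of whether housing acted differently by sex. Of the 500 miRNAs, 2 (0.4%) had a housing difference that differed between females and males (edgeR, adjusted p under 0.05), and 36 (7.2%) at an unadjusted p under 0.05. miR-34a-5p, a target of p53, had 9.09, 8.85, 9.14, 9.92 and 9.83 in GH females and 8.72, 8.60, 8.92, 8.83 and 9.56 in SI females, with overlap, and 7.63 to 9.38 in GH and 9.94 to 10.47 in SI males, without. The log2 fold change was -0.46 ± 0.30 (SE; unadjusted p = 0.143, adjusted p = 0.417) in females and 1.52 ± 0.31 (SE; adjusted p = 0.00699) in males, a difference of -1.99 ± 0.43 (SE; adjusted p = 0.0407). miR-30b-5p, lower in all SI females, had 9.62 to 10.23 in GH and 10.39 to 11.10 in SI males. Its log2 fold change in males was 0.75 ± 0.27 (SE; adjusted p = 0.0965), a difference of -1.69 ± 0.38 (SE; adjusted p = 0.0407). Both calls rested on the placement of the I17 libraries, since with these exchanged the adjusted p was 0.406 and 0.429. With DESeq2's size factors it was 0.0592 for both. Of the females left out in turn, both calls held without GH rats 12, 13 or 15, that of miR-34a-5p alone without SI rat 17 (adjusted p = 0.0344), and neither without GH rat 16 (0.109), GH rat 17 (0.0762), SI rat 10 (0.124 and 0.111), 12 (0.146), 14 (0.0888) or 16 (0.0656).

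For miR-22-3p the males had 12.99 to 13.71 in GH and 11.61 to 12.20 in SI males, again without overlap, and a log2 fold change of -1.49 ± 0.28 (SE; adjusted p = 0.00699). The difference between the sexes was -0.07 ± 0.39 (SE; adjusted p = 0.957). miR-153-3p had 9.83 to 10.53 in GH and 8.27 to 9.47 in SI males, a log2 fold change of -1.04 ± 0.49 (SE; adjusted p = 0.197). The let-7 list had a median of 0.47 in males, 4 of 9 with an unadjusted p under 0.05, and the miR-29 list -1.04, 2 of 3. Of the 500 miRNAs 331 (66.2%) had fold changes of 1 sign in both sexes, and of the 104 with an unadjusted p under 0.05 in females 88 (84.6%) did. Over 259 miRNAs with a mean log2 normalised count of at least 8, Pearson's r of the fold changes of females and males was 0.59, and over all 500 it was 0.13, a description across miRNAs that share libraries and depth. Arm ratios had 1 sign in both sexes for 85 of 113 hairpins (75.2%), and those of miR-30e, miR-411 and miR-423 were at -1.17 ± 0.35 (SE), -1.0 ± 0.31 and 0.73 ± 0.23 in males, each with an adjusted p of 0.0600, and that of miR-132 at -0.21 ± 0.21 (SE; adjusted p = 0.502).

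**Figure D5:**
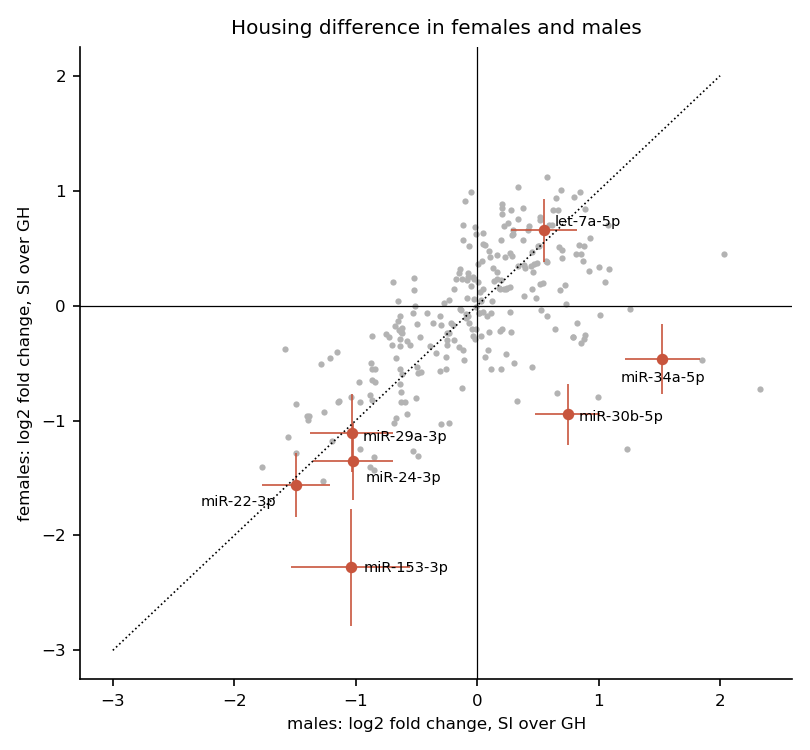
Log2 fold change in SI compared to GH rats in males (x axis) and females (y axis) of 259 miRNAs with a mean log2 normalised count of at least 8, with the line of equal change dotted and ± SE for 7 named miRNAs. miR-22-3p lies near the line at -1.49 and -1.56, and miR-34a-5p and miR-30b-5p lie in the lower right, above 0 in males and below 0 in females.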

How the data were processed

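Small RNA libraries of adBNST punches from 10 females (5 GH, 5 SI) and 10 males were grouped by the labels. The authors trimmed adapters with cutadapt, aligned collapsed reads to miRBase v21 with seqbuster in bcbio-nextgen, and deposited, per library, the raw read count of every distinct sequence of at least 2 reads, with its miRNA and its differences from the reference. The versions of cutadapt and seqbuster are not given in the sources used here. The submitters' processing notes also name FastQC and STAR. Sequences read once are missing, and reads carry no molecular identifiers in these files, so counts hold PCR duplicates (22 cycles).

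Counts were summed to miRNAs, seed families, arms and isomiRs. Features that reached 10 counts in 5 or more of 20 libraries were fitted in 1 model of the 4 groups with edgeR 4.0.16 (R 4.3.3, TMM scaling, quasi-likelihood test), in which every p of a miRNA, seed family or isomiR was obtained, with Benjamini-Hochberg adjustment over all features of a level and a threshold of 0.05. Arm ratios (pseudocount 0.5, at least 10 counts of both arms in at least 15 libraries) and isomiR shares within miRNAs (at least 200 reads in every library, pseudocount 0.5) were fitted with limma 3.58.1. Library measures and the 13 classes were compared by exact permutation tests, two-sided, of 5 against 5. Standard errors come from the fold change and its test statistic. p-values measure the spread between rats, which the fits pooled over both sexes. The study's tool, DESeq2 (here 1.42.0), was an alternative, as were other scalings and filters, the females alone, the exchange of the 2 I17 libraries, a replicate block, and leaving out single females. A GC correction, thinning, and the alternatives of the housing by sex test and of the distinct sequences were chosen after seeing the data. None of 45 pairs of female libraries was a copy (lowest chi-square per degree of freedom 135.75). Depth was 3602338 to 8205770 miRNA reads per female. The fits were tested on simulated data.

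The text names every miRNA past the threshold, up to 10 per direction with an unadjusted p under 0.05 and groups that do not overlap, and, as examples, the members of each list with the highest counts or an unadjusted p under 0.05, and cell type markers. For seeds, hairpins and isomiRs it takes up to 5 per direction past the threshold and 5 without overlap, and for shares up to 3 per class. The comparison and the lists were chosen with earlier results of these data known. A few others (miR-22-5p, miR-34a-5p, the let-7, miR-92 and miR-34 seeds, the ratio of miR-153, the forms and shares of miR-22-3p, miR-153-3p and miR-129-5p) were named after their values were seen. RefSeq gave mature sequences and hairpins (GRCr8), and 559 of the 617 miRNAs were found there. Its coordinates are not those of the authors' alignment (rn6). Python 3.11.15, pandas 2.3.3 and matplotlib 3.10.9 were used.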

Additional observations from a re-analysis of the deposited data

Results flagged for a closer look

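A value far from the other 4 of its group was found in 17 of the groups of 5 rats examined (7.66%), and chance gives such a value in about 1 of 20 groups. Most were in SI rat 16, whose library held 11399 distinct sequences (the next lowest SI library held 15340). In this rat, on the log2 scale of normalised counts, miR-140-5p, miR-153-5p, miR-136-5p and miR-338-3p were listed at 0, miR-29b-3p was at 4.74, miR-195-5p at 6.69, miR-27b-3p at 12.96, miR-344b-1-3p at 9.72 and miR-369-5p at 7.56, each the lowest of the SI females. The log2 ratio of 5p to 3p counts was 15.06 for miR-338 and -13.19 for miR-140 in the same rat, where 1 strand had no listed reads.

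Other rats stood apart in single values. SI rat 14 had miR-7b at 16.24, above the other SI females. GH rat 15 had miR-93-5p at 9.27 and miR-27b-3p at 14.70, the lowest of the GH females, and GH rat 16 had miR-341 at 9.23. The form of miR-24-3p that lacks its last base and has a T added was at 2.38 in SI rat 10 and listed at 0 in the other SI females.

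The housing difference differed between the sexes for miR-34a-5p, by -1.99 on the log2 scale, and for miR-30b-5p, by -1.69 (females minus males, edgeR). Neither passed the threshold with the I17 libraries exchanged or with DESeq2's size factors.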

How the results depend on the processing

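Counts of calls moved more than directions. miR-22-3p was called under 19 of 22 alternatives (adjusted p from 4.61e-06 to 0.294) and miR-153-3p under 15 of 22 (0.000233 to 0.299), both always below 0. Against 2 miRNAs called, DESeq2's Wald test called 67 of 586 (32 higher, 35 lower, the 2 among them), a filter of at least 10 counts in every library 40 of 307, the exchange of the I17 libraries 5, and the 10 females alone 0, with 77 at an unadjusted p under 0.05. Leaving out 1 female gave 1 to 63, with 63 without SI rat 10, 4 without SI rat 14, 3 without GH rat 13 or SI rat 16, and 1 without GH rat 16, GH rat 17, SI rat 12 or SI rat 17. Seed families (2) were 53 with DESeq2, 26 with the exchange, 0 with the females alone and 1 to 53 with a female left out, with 53 without SI rat 10, 5 without SI rat 14 or 16 and 1 without GH rat 16 or 17 or SI rat 12 or 17. Arm ratios (4) were 11 with a pseudocount of 5, 7 with the exchange, 0 with the females alone and 0 to 16 with a female left out, with 16 without SI rat 10, 7 without GH rat 13, 4 without SI rat 16, 2 without SI rat 14, 1 without GH rat 12 and 0 without the others. isomiRs (0) were 23 with DESeq2 and 0 to 3 with a female left out, the nonzero counts coming without SI rats 10 (3) and 17 (2). Shares within miRNAs (0) were 8 with the exchange and 0 to 4 with a female left out, the nonzero counts coming without SI rats 10 (4) and 12 (2). The 2 housing by sex calls were 0 with DESeq2's size factors, 0 with the exchange and 0 to 2 with a female left out, with 2 without GH rat 12, 13 or 15, 1 without SI rat 17 and 0 without the others. The cause was not tested. Fits of the females alone and of 6 females hold fewer samples, and they also lack the males, whose levels of the 2 called miRNAs spread less. Sequences read once in a library were not in the files, which limits rare isomiRs most.

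The numbers 12, 16 and 17 occur in both groups. Same-numbered rats did not deviate together (correlations 0.09, -0.30 and -0.08). So few correlations cannot exclude pairing, and no source used here says what the numbers mean. A replicate block on these 6 females called 0 miRNAs, 0 seed families, 0 arm ratios, 0 isomiRs and 0 shares, and the same 6 without the block 0, 0, 0, 0 and 4.

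Fold changes of a few uncalled list members changed sign. They were, with sample quality weights in voom, miR-93-5p (0.12), miR-132-3p (0.072), miR-212-5p (0.060) and miR-222-3p (-0.010); with the block, miR-212-5p (0.20), miR-125b-5p (0.12) and miR-344b-1-3p (-0.21); in the same 6 females unblocked, miR-132-3p (0.015), miR-212-5p (0.22), miR-125b-5p (0.13) and miR-344b-1-3p (-0.13). miR-212-5p was at 0.012 with DESeq2 and with its size factors and at 0.10 with the exchange, and miR-323-5p at -0.13 with the GC correction. With a female left out the ranges crossed 0 for miR-181b-5p (-0.18 to 0.0089), miR-93-5p (-0.24 to 0.10), miR-132-3p (-0.19 to 0.080), miR-212-5p (-0.15 to 0.16), miR-344b-1-3p (-0.057 to 0.26) and miR-487b-3p (-0.38 to 0.012). Differences of isomiR classes, in percentage points, turned with a mean over miRNAs in place of reads for the reference form (-0.887), extended 5′ ends (0.0113), shortened 3′ ends (0.775), extended 3′ ends (0.138), added U (0.139) and added C (0.128), and without the 10 most counted miRNAs for added G (-0.00989) and mismatches (0.00902).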
